A study of Mus musculus with 6 samples.

Results

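The enzymes described here supply the pyrimidine nucleotides and the deoxynucleotides from which DNA is copied: Cad, Umps, Rrm1, Rrm2, Tyms, Tk1, Dtymk, Dck and Dut. They were chosen by name, and a member is every probe set (the group of probes summarised as 1 value) that the array platform's annotation pairs with 1 of these genes alone. This gave 10 probe sets for the 9 genes, 2 of them for Tk1, out of 21789 single-gene probe sets for 19938 genes. Gene expression was measured in pro-B and pre-B cells, the bone marrow progenitors that rearrange the immunoglobulin genes, sorted together from BALB/c mice, an inbred strain. There were 3 arrays from old mice aged 24 months and 3 from young mice aged 2 months, with no treatment or genetic change in either group, and 100 ng of RNA was amplified for each array. All levels below are log2 of the deposited intensity and all differences are on that scale, so that a difference of 1 is a change by a factor of 2. The labels do not say if the RNA of an array came from a single animal or several. The p-values thus reflect only the spread between these arrays, and the number of arrays limits the precision.

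Cells make UMP, the parent of all pyrimidine nucleotides, from small precursors, and ribonucleotide reductase turns ribonucleotides into the deoxy forms. Thymidylate synthase adds the methyl group that sets the DNA base apart from the RNA base, kinases bring salvaged deoxynucleosides into the same pools, and dUTPase removes dUTP before it can be built into DNA. Several of these genes are transcribed mainly around S phase, and pre-B cells divide rapidly after they have made a heavy chain.

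The arrays differed in signal before any gene was considered. The 95th percentile of 1359 probe sets for chemosensory receptors of the nose, genes with no known use in B cell progenitors, was taken as the background of each array. It was 6.30, 6.40 and 5.17 for old replicates 1, 2 and 3 and 4.60 to 4.83 for the young arrays. The interquartile range of all values was 1.41 and 1.40 for old replicates 1 and 2, 2.44 for old replicate 3 and 2.76 to 2.98 for the young arrays. Actb, which encodes beta-actin, stood at 6.67 and 6.84 on old replicates 1 and 2 against 11.58 to 11.65 on the other 4 arrays. Old replicates 1 and 2 therefore stood apart, and results are given with and without them. Of 12 early B lineage markers with a probe set, 5, 4 and 11 lay above background on old replicates 1, 2 and 3, and 12 on each young array, with a summed intensity of 3054, 4653 and 8024 on the old arrays and 9180 to 9689 on the young. Ebf1, Il7r and Rag1 were within background on old replicates 1 and 2, while Vpreb1, a surrogate light chain gene, was above it on all 6 arrays. In sorted cells measured in bulk, fewer cells of a type and less RNA per cell cannot be told apart. Whether the low signal of old replicates 1 and 2 comes from the cells, from the state of the RNA or from the arrays was not tested.

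The upstream sequences of the members that lay furthest below the young level, Rrm1, Rrm2 and Dtymk, are shown with that of Cad, which did not lie below it in the comparison of all arrays. They are the 250 bases before each RefSeq start in GRCm38.p6, 5′ to 3′ on the strand of the gene, at chr7:102441445-102441694 (+) for Rrm1, chr12:24708004-24708253 (+) for Rrm2, chr1:93801935-93802184 (-) for Dtymk and chr5:31054530-31054779 (+) for Cad. Capitals mark CCAAT on either strand, a word bound by NF-Y.
Rrm1: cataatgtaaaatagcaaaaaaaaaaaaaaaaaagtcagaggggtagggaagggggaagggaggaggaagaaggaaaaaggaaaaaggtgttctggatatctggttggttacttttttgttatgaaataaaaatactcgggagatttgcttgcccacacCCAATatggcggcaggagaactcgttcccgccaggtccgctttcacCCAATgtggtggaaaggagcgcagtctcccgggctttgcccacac
Rrm2: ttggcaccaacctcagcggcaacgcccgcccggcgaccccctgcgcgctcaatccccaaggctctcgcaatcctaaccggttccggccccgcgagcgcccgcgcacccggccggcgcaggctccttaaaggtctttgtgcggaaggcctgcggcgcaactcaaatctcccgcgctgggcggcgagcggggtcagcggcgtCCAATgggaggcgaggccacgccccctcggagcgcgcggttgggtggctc
Dtymk: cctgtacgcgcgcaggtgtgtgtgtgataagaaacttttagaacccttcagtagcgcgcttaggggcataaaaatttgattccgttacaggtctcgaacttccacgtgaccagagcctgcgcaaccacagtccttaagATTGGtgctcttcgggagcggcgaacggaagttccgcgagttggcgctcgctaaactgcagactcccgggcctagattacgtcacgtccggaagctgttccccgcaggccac
Cad: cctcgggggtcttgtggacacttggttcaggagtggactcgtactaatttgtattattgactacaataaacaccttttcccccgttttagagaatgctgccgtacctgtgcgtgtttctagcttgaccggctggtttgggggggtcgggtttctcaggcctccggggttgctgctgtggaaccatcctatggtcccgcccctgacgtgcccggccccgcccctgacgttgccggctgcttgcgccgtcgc
CCAAT occurred in 3 of the 9 member promoters, those of Rrm1 (beginning 91 and 45 bases before the start), Rrm2 (50 bases) and Dtymk (112 bases, on the opposite strand), and in 33.8% of the 32851 promoters in the table. GGGCGG, the core of the GC box, occurred in 7 of 9, all but Rrm1 and Dtymk, against 32.7% of all, and CACGTG, the E-box bound by Myc and other factors, in 2 of 9, Tyms and Dtymk, against 6.02%. None of the E2F words TTTCCCGC, TTTCGCGC, TTTGCCGC and TTTGGCGC occurred in the 9, against 1.86% of all. These searches covered both strands of the same 250 bases, and no overlap of words was removed. They describe letters in this window only.

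Of the enzymes that make UMP, Umps had lower values on the old arrays and Cad was not measured above background there, and neither passed the test. Cad, which carries out the opening steps of pyrimidine synthesis, was at 5.85, 5.72 and 4.94 on old replicates 1 to 3 and at 5.28, 5.18 and 5.74 on young replicates 1 to 3. The groups overlapped, and all 3 old values were within the background of their arrays, so no old level of Cad was measured. Umps, which makes UMP by the closing steps, stood at 5.57, 5.75 and 6.76 on the old and at 7.16, 6.80 and 7.91 on the young arrays. Every old value of Umps lay below every young one, the closest pair being old replicate 3 and young replicate 2, but old replicates 1 and 2 were within background. The difference was -1.26 ± 0.42 (SE) for Umps (limma, adjusted p = 0.101) and 0.11 ± 0.32 (SE) for Cad (adjusted p = 0.774). The smallest adjusted p of this fit over all probe sets was 0.101. That value was shared at least as far as Dut, at rank 6977 of 23410 by unadjusted p, so here and below it does not single out a gene. The sign for Cad turned to -0.15 when each array was centred on its median and to -0.46 with old replicate 3 as the only old array.

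Both subunits of ribonucleotide reductase, the enzyme that makes deoxynucleotides, lay lower on every old array than on any young array. Rrm1, the large subunit with the catalytic site, stood at 3.97, 4.81 and 8.03 on the old and at 8.63, 8.52 and 9.06 on the young arrays. Rrm2, the small subunit made around S phase, was at 6.01, 6.63 and 8.47 against 9.04, 8.76 and 9.25. Old replicates 1 and 2 held the low values for both genes and old replicate 3 came close to the young arrays. Rrm1 was within background on both of those arrays and Rrm2 on old replicate 1, so the size of the difference there is not measured. In the comparison of all arrays Rrm1 differed by -3.13 ± 0.98 (SE) and Rrm2 by -1.98 ± 0.61 (SE), each at a limma adjusted p of 0.101. With old values within background raised to that level, the mean differences were -1.83 and -1.88.

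Of the genes around thymidylate, Tyms and Dtymk lay below the young arrays on every old array. Tyms, thymidylate synthase, stood at 5.10, 6.49 and 6.73 on the old and at 7.13, 6.96 and 7.30 on the young arrays. Only old replicate 1 was within background, but old replicate 2 exceeded the background of its array by 0.09 only. Old replicates 2 and 3 were close to each other, unlike the pattern of Rrm1. Dtymk, the kinase that phosphorylates dTMP to dTDP, was at 5.73, 6.43 and 7.97 against 8.74, 8.56 and 8.93. Its old replicate 2 exceeded the background of that array by 0.02 only. The differences were -1.02 ± 0.44 (SE) for Tyms (limma, adjusted p = 0.11) and -2.03 ± 0.55 (SE) for Dtymk (adjusted p = 0.101). Dut, which hydrolyses dUTP to dUMP, stood at 5.81, 6.30 and 7.00 on the old and at 7.32, 7.13 and 7.37 on the young arrays. The groups of Dut did not overlap, with old replicates 1 and 2 within background, and the difference was -0.90 ± 0.33 (SE, limma, adjusted p = 0.101).

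Tk1, the cytosolic thymidine kinase of dividing cells, has 2 probe sets whose annotations share 6 of 8 transcript accessions each, and they disagreed. Probe set 10582809 stood at 8.61, 7.21 and 6.68 on the old and at 7.59, 7.20 and 7.60 on the young arrays. Old replicate 1 was the highest of the 6 arrays and old replicate 3 the lowest, and all old values were above background. Probe set 10393431 stood at 5.92, 7.00 and 7.15 on the old and at 7.39, 7.13 and 7.07 on the young arrays. Here old replicate 1 was the lowest, within background, and the other 5 arrays lay close together. Neither passed the test, at differences of 0.03 ± 0.49 (SE) and -0.51 ± 0.36 (SE) with limma (adjusted p = 0.957 and 0.253), and no direction is given for Tk1. Probe positions were not used here, so whether probe set 10582809 measures Tk1 or a related sequence was not tested. Under quantile normalization the values were 1.40 and 0.39, and with median centring -0.22 and -0.76.

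Dck, deoxycytidine kinase, which phosphorylates deoxycytidine and the purine deoxynucleosides, stood at 5.05, 5.55 and 7.13 on the old and at 7.63, 7.83 and 7.96 on the young arrays. The groups did not overlap, and old replicates 1 and 2 were within background. The difference was -1.90 ± 0.52 (SE, limma, adjusted p = 0.101). The plot of levels on the 6 arrays shows these values with the background of each array.

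**Figure D1:**
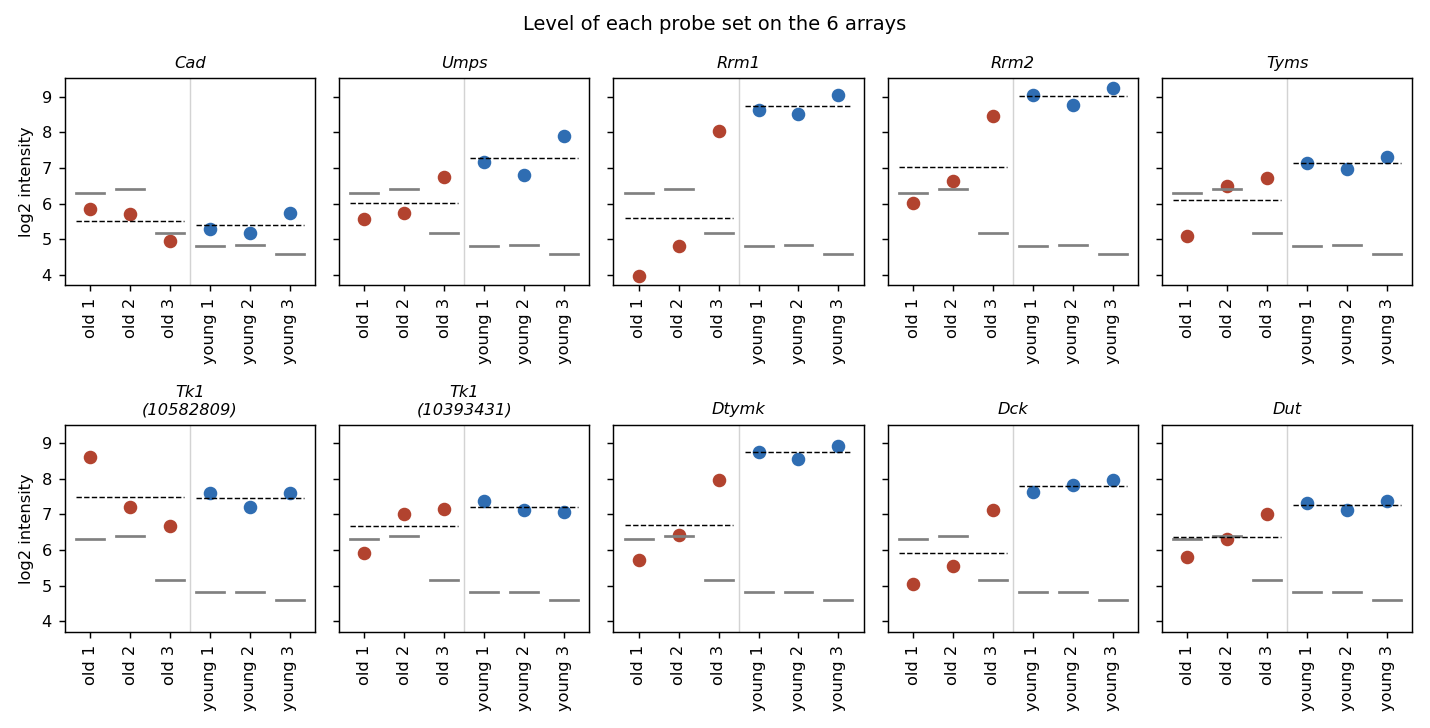
Level of each of the 10 probe sets (log2 intensity, vertical axis) on the 3 old (red) and 3 young (blue) arrays, with group means as dashed lines and the background level of each array as a grey bar. Rrm1 spans 3.97 to 8.03 on the old arrays and 8.52 to 9.06 on the young, whereas the Tk1 probe set 10582809 is highest on old replicate 1.

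Over the 10 probe sets, 0 passed the threshold of an adjusted p under 0.05 with limma, as did 0.00% of the 23410 probe sets tested. At an unadjusted p under 0.05 there were 6 members, all lower, beside 46.8% of all probe sets, 21.9% being lower. These 2 shares include dim probe sets and were not taken among those above background on the young arrays. The old mean was lower for 8 of the 10, beside 38.1% of all probe sets and 71.7% of the 11665 probe sets that lay above background on all 3 young arrays, as all 10 members did. Every old array lay below every young array for 7 of the 10. This held for 22.9% of all probe sets and 44.8% of those above background on the young arrays. The old arrays all lay above the young for 0 of the 10, beside 36.1% of all probe sets. That last share includes dim probe sets and was not taken among those above background on the young arrays, so it does not set the members apart. The median difference over the members was -1.14, while that over all probe sets tested was 0.35. The latter became 0.10 with median centring and 0.09 with quantile normalization. With dim probe sets left out it was -0.10, so its positive sign rested on dim probe sets, while the members, all kept, stayed at -1.14. The members' median was -0.60 with quantile normalization. On old replicates 1, 2 and 3, 1, 5 and 9 of the 10 members lay above background, beside 27.3%, 25.1% and 90.5% of the probe sets that did so on the young arrays.

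Without old replicate 3 the test called 7 of the 10 members, all lower and all but Cad and Tk1, at limma adjusted p from 3.32e-05 (Rrm1) to 0.0152 (Tyms). That fit called 82.4% of all probe sets in either direction, 30.2% lower, and 59.6% lower among those above background on the young arrays. The members' median difference from the young mean was -1.88 on old replicate 1 and -1.25 on old replicate 2, beside 0.48 and 0.43 over all probe sets and -0.95 and -0.85 over those above background on the young arrays. The members ranged widely on these arrays. On old replicate 1 they ran from -4.77 for Rrm1 to 1.14 for the Tk1 probe set 10582809. On old replicate 2 they ran from -3.92 for Rrm1 to 0.32 for Cad. These Rrm1 and Cad values were within background, so the sizes of their differences are not measured. Tyms and the Tk1 probe set 10393431 were higher on old replicate 2 than on old replicate 1 by 1.39 and 1.08, while the other Tk1 probe set was lower by 1.40 there. For Tyms and probe set 10393431 the value on old replicate 1 was within background, and Tyms exceeded background by 0.09 only on old replicate 2.

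**Figure D2:**
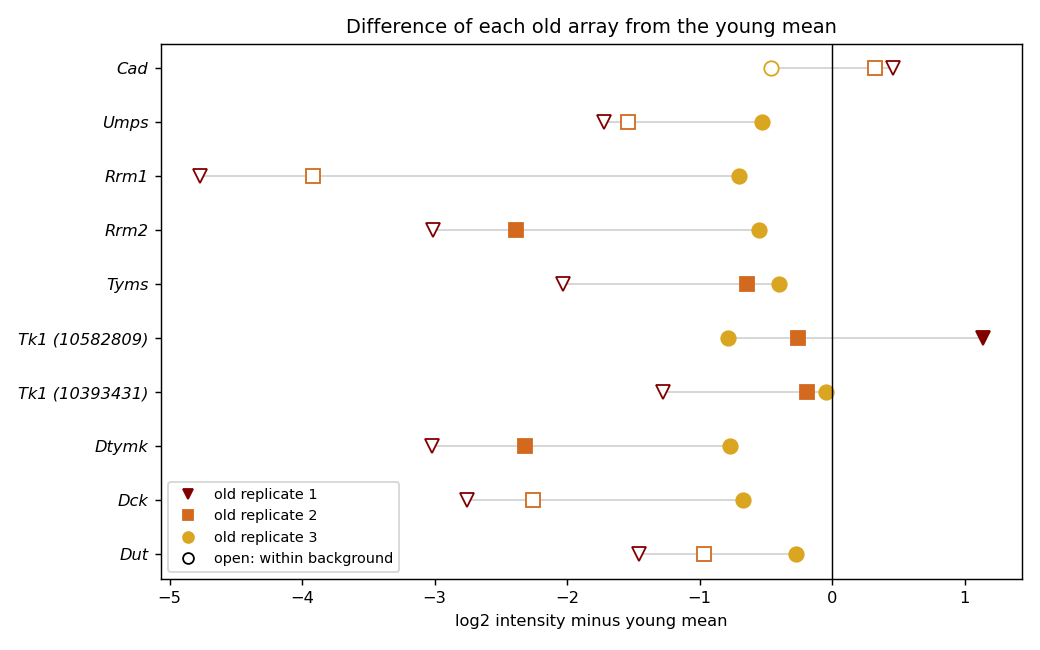
Difference of each old array from the young mean (log2 intensity, horizontal axis) for the 10 probe sets, with a symbol for each old array, open where its value was within background. Old replicate 3 lies within 0.79 of the young mean for every probe set, while Rrm1 reaches -4.77 on old replicate 1.

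Old replicate 3 was the old array whose signal was closest to that of the young arrays. Its background, 5.17, was still higher and its interquartile range, 2.44, narrower than on any young array. On it 9 of the 10 probe sets lay below every young array, and the Tk1 probe set 10393431 lay among them. The same held for 31.8% of all probe sets and for 53.5% of those above background on the young arrays. Compared alone with the 3 young arrays, and taken to vary as those do, the members had a median difference of -0.54, where all probe sets had 0.05 and those above background on the young arrays -0.14. Dtymk fell by 0.77 ± 0.16 (SE, limma, adjusted p = 0.0393), Dck by 0.67 ± 0.16 (SE, adjusted p = 0.0477) and the Tk1 probe set 10582809 by 0.79 ± 0.18 (SE, adjusted p = 0.0471). The other Tk1 probe set was at -0.05. These 3 of 10 stand beside 7.00% of all probe sets called, 5.24% called lower, and 10.0% called lower among those above background on the young arrays. On the linear scale, Dtymk stood at 0.586, Dck at 0.626 and probe set 10582809 at 0.578 of the geometric mean of the young arrays.

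The other members on old replicate 3 did not pass. Rrm1 differed from the young mean by -0.70 ± 0.21 (SE, limma, adjusted p = 0.0845), Rrm2 by -0.55 ± 0.19 (SE, adjusted p = 0.118) and Tyms by -0.40 ± 0.16 (SE, adjusted p = 0.158). Umps, at -0.53 ± 0.36 (SE, adjusted p = 0.372), had the widest spread among the young arrays, a range of 1.11. Cad differed by -0.46, from a value within background, Dut by -0.27 and the Tk1 probe set 10393431 by -0.05, at adjusted p of 0.219, 0.272 and 0.872. The calls depended on the setting: 0 members passed after quantile normalization or without young replicate 1, 1 (Dtymk) passed without dim probe sets, and 2 (Dtymk and Tk1 probe set 10582809) passed without young replicate 2. Without young replicate 3 there were 4, Rrm1 being the added one. After quantile normalization the members called without that step lay at -0.54 (Dtymk), -0.37 (Dck) and -0.51 (Tk1), Dut turned to 0.03 and the Tk1 probe set 10393431 to 0.26. With a single old array, this compares that array with the young ones and not the ages.

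**Figure D3:**
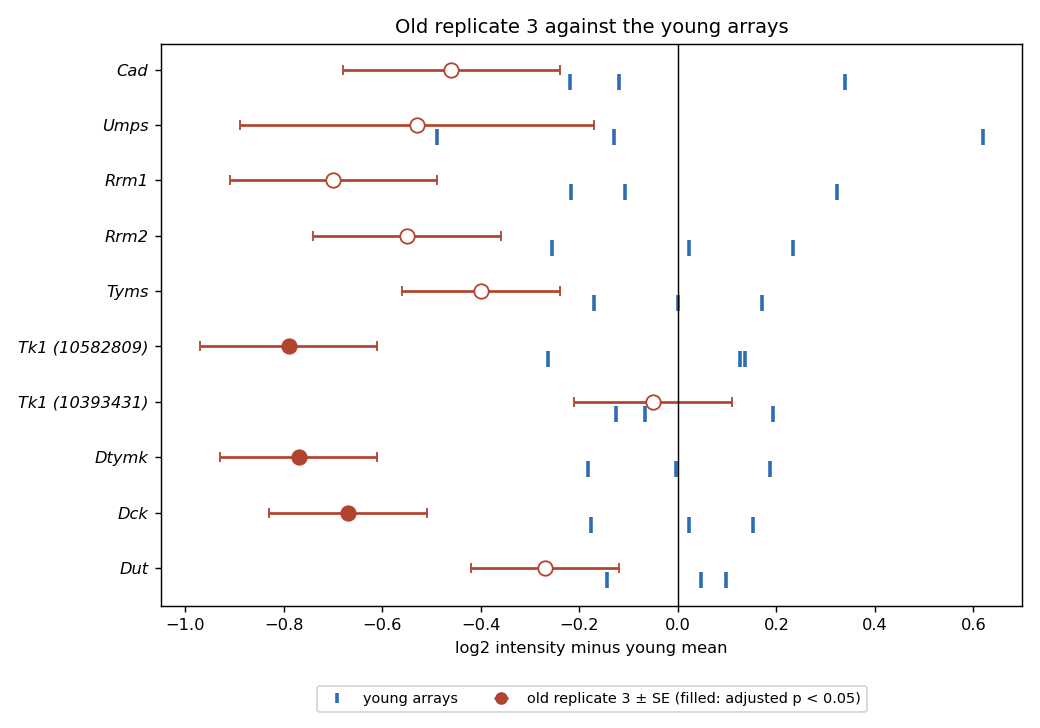
Old replicate 3 minus the young mean for each probe set (log2 intensity, horizontal axis), with the standard error of the limma fit as bars and filled circles for adjusted p under 0.05, and the 3 young arrays as blue ticks. Of the circles 9 lie to the left of every tick in their row, and Dtymk, Dck and Tk1 probe set 10582809 are filled.

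The members also varied together among the young arrays. Young replicate 2 lay below the gene's young mean for 9 of the 10 probe sets, beside 48.9% of all probe sets. Young replicate 3 did so for 1 of 10, the Tk1 probe set 10393431, beside 51.3% of all. The members' median deviation from the young mean was 0, -0.20 and 0.18 on young replicates 1, 2 and 3, where all probe sets had 0 on each. Probe sets above background on the young arrays had -0.02, -0.02 and 0.04. Young replicate 3 also had the lowest background, 4.60, and the widest interquartile range, 2.98. Umps carried the widest deviations, -0.49 and 0.62. The 11 genes of the replicative helicase (Mcm2 to Mcm7, the GINS subunits and Cdc45, which unwind DNA ahead of the polymerases) had -0.05, -0.23 and 0.30, and the 12 early B lineage markers 0.01, 0.01 and -0.05. Neutrophil granule markers, of a cell type outside the sort, had -0.09, -0.27 and 0.36, with 8 of 8 above background and a summed intensity of 7974, 7664 and 9710 on the young arrays. On old replicates 1, 2 and 3 their sum was 2019, 4759 and 8158, with 3, 3 and 8 above background and a median of -2.64, -1.57 and -0.11 from the young mean. Their part in the members' values was not tested.

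The other genes of pyrimidine and deoxynucleotide metabolism were taken from lists in which 35 genes had a single-gene probe set. Of these 35, 0 passed the test in the comparison of all arrays. At an unadjusted p under 0.05 with limma, 15 were lower and 4 higher, beside 21.8% and 25.2% of all 19938 genes. The median difference was -0.45, beside 0.37 over all genes. Of the 35 genes 28 lay above background on all 3 young arrays, against 9803 of the 19938. Shares and medians over all genes, here and on old replicate 3 below, are thus those of a dimmer set. Every old array lay below every young array for 14 of the 35, beside 4610 of the 19938 genes. Among probe sets above background on the young arrays 44.8% did so. The old arrays all lay above the young for 5 of the 35, beside 7307 of the 19938 genes. Dctpp1, which breaks down modified dCTP, stood at 6.94, 7.14 and 7.72 on the old and at 8.48, 8.20 and 8.61 on the young arrays, above background on all 6, and differed by -1.17 ± 0.28 (SE, limma, adjusted p = 0.101). All its old values lay below the young ones. Nme1 and Nme2, nucleoside diphosphate kinases so alike in sequence that probes may not part them, differed by -1.75 and -1.04, and Ctps, which makes CTP from UTP, by -1.25, each at adjusted p = 0.101. Nme1 was above background on 2 old arrays, and Nme2 and Ctps on old replicate 3 only. Slc29a2, a nucleoside transporter, was at 6.41, 6.47 and 5.50 on the old arrays against 5.29, 5.35 and 5.44, a difference of 0.77 (limma, adjusted p = 0.102). Its values on old replicates 1 and 2 were just above the raised backgrounds of those arrays, 6.30 and 6.40. On old replicate 3 it differed from the young mean by 0.14. Upp2, a uridine phosphorylase, was within background on all 6 arrays.

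Rrm2b, the small subunit of ribonucleotide reductase that serves resting cells and responds to p53, lay lower on every old array than on any young array. It stood at 3.07, 3.52 and 6.66 on the old and at 7.20, 7.24 and 7.24 on the young arrays. Old replicates 1 and 2 were within background. Its difference was -2.82 ± 0.89 (SE, limma, adjusted p = 0.101), and on old replicate 3 alone it fell by 0.57 (adjusted p = 0.0404). Dhodh, the mitochondrial enzyme whose step lies between those of Cad and Umps, differed by 0.16 ± 0.25 (SE, limma, adjusted p = 0.58). It was at 5.26 on old replicate 3 against 5.14 to 5.40 on the young arrays. Its values on old replicates 1 and 2, 5.21 and 5.84, were within background. Of the 35 genes, 18 lay below every young array on old replicate 3 and 7 above. The former held for 32.2% of all 19938 genes and 53.5% of the probe sets above background on the young arrays. The genes called with old replicate 3 alone were Nme1, Nme2, Uckl1, Rrm2b and Mthfd1. They differed from the young mean by -0.67, -0.79, -0.53, -0.57 and -0.82. The Mthfd1 value on old replicate 3 was within background.

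By groups, the 8 genes of other pyrimidine synthesis and phosphorylation had a median difference of -1.03 (5 lower), the 7 of other dNTP supply -0.73 (6 lower), the 10 of nucleotide breakdown and pool control -0.56 (6 lower) and the 10 of ribonucleoside salvage 0.19 (4 lower). On old replicate 3 their medians from the young mean were -0.25, -0.38, -0.18 and -0.05. The 9 members, each by its brightest probe set, which for Tk1 is 10582809, had -0.55 there, the replicative helicase -0.59 and the 12 genes of de novo purine synthesis -0.43. All 11 helicase genes and 9 of the 12 purine genes lay below every young array on old replicate 3, as did 9 of 9 members, beside 32.2% of all genes and 53.5% of the probe sets above background on the young arrays. The Tk1 probe set 10393431, which lay among the young arrays, is left out of that 9 by taking the brightest. In the comparison of all arrays the helicase genes had a median of -1.78 and the purine genes -1.34, against -1.26 for the members, and 0 passed in any of these lists. These lists share the arrays, and no difference between them was tested.

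**Figure D4:**
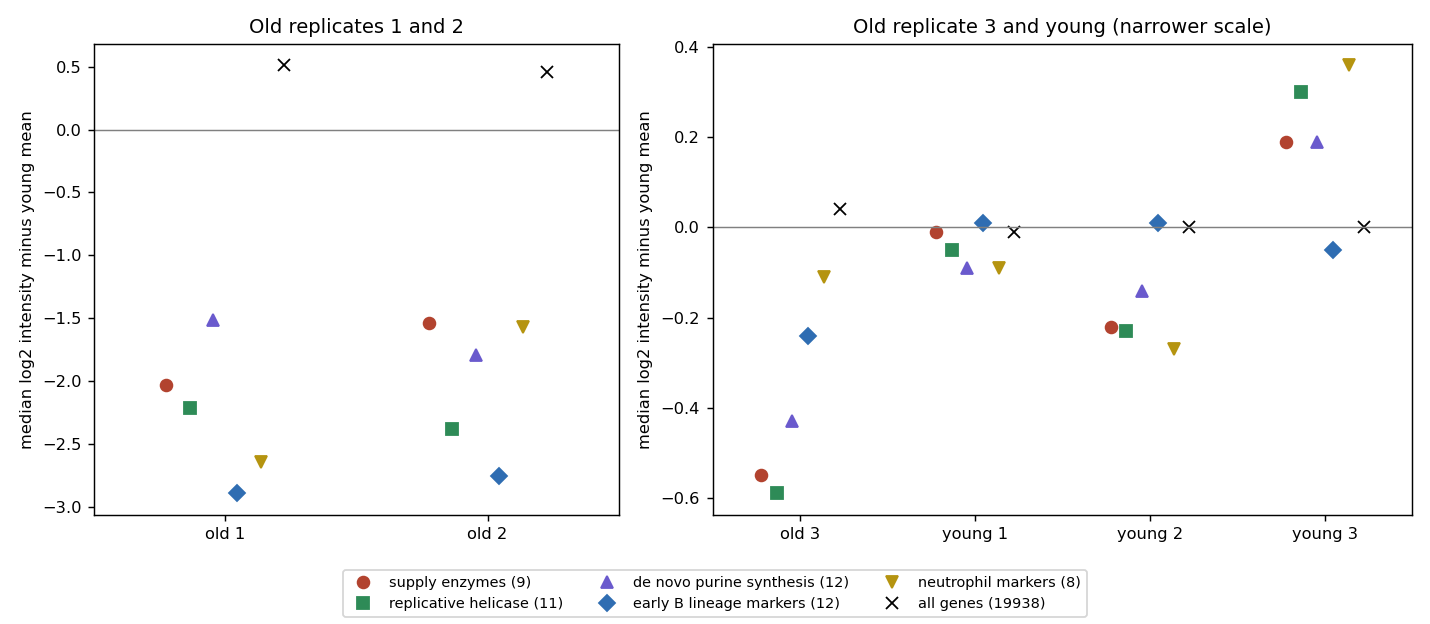
Median over the genes of each list of the log2 intensity minus the gene's young mean (vertical axis) on old replicates 1 and 2 (left) and, on a narrower scale, on old replicate 3 and the young arrays (right), with the number of genes in brackets. The supply enzymes and the replicative helicase lie at -0.55 and -0.59 on old replicate 3, the early B lineage markers at -0.24 and all genes at 0.04.

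Other lists of cell type markers were set beside these. Mature B markers (5 genes) had a median of 0.14 from the young mean on old replicate 3, -0.75 on old replicate 1 and -0.97 on old replicate 2. Erythroid markers (4 genes) had -0.29, -0.66 and -0.15 in the same order. Car1 was at 5.10 on old replicate 3, within background, against 6.65 to 7.13 on the young arrays. Car2, Klf1 and Alas2 differed from the young mean on old replicate 3 by -0.29, -0.29 and -0.08, Klf1 from a value within background. Monocyte and macrophage markers (4 genes) had -0.04, 0.72 and 0.52, and only Lyz2 was above background on all young arrays. Plasma cell markers (4 genes) had 0.08, 0.04 and -0.15. T cell markers (5 genes) had 0.04, 0.56 and 0.77, and 0 of 5 was above background on all young arrays. Of the 12 early B lineage markers, 6 lay below every young array on old replicate 3 and 1 above. Their differences from the young mean there ran from -2.02 for Dntt and -1.28 for Igll1 to 0.22 for Pax5. Dntt was within background on that array, at 5.13, so the size of its difference is not measured. Its young values ran from 6.59 to 8.18. Il7r was at -0.01, Cd79a at -0.03 and Cd79b at -0.15 from the young mean. The markers named here were picked after their values were seen. The part of any of these markers in the members' values was not tested.

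The pattern of each member over the 6 arrays was compared with that of 9824 other genes above the young background, by the root mean square difference of the values less each gene's young mean. For most members the distances rest largely on old replicates 1 and 2, where 9 and 5 of the 10 member probe sets were within background, so their order describes the deposited values only. Rrm2, Dtymk and Dck lay close together, at 0.10 for Rrm2 and Dtymk, 0.16 for Dtymk and Dck and 0.19 for Rrm2 and Dck. Gins4, Cct8 and Ezh2 were nearest to Rrm1 (0.10, 0.14 and 0.16), Cep55, Stx16 and Haus6 to Rrm2 (0.04, 0.07 and 0.07) and Stx16, Taf1 and Nt5c2 to Dtymk (0.05, 0.06 and 0.09). Mis12, Sod2 and Prkar1a were nearest to Tyms (0.04, 0.09 and 0.10), Washc5, Etfdh and Lias to Dck (each 0.09), Srprb, Prelid2 and Cwf19l1 to Dut (0.04, 0.06 and 0.07) and Haus2, Pgk1 and Pnp to Umps (0.08, 0.16 and 0.16). Many genes shared such a pattern: 698 lay within 0.25 of Dut, 386 of Dck, 324 of Rrm2, 303 of Cad, 232 of Dtymk, 110 of Tyms, 63 of Umps and 32 of Rrm1. Cad was nearest to Cd177, Get4 and Cd3eap (0.06, 0.09 and 0.10). No gene lay within 0.25 of the brighter Tk1 probe set, whose nearest were Orm1, Ptpn3 and Zfp180 (0.25, 0.26 and 0.28).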

How the data were processed

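Per the submitters' processing notes the arrays were summarised with RMA, no version or setting being stated there. The deposited intensity is linear, with 1 value per probe set, and log2 was taken. Of 28940 probe sets 21789 are annotated to 1 gene, 1621 to several and 5530 to none, and the 23410 with a gene went into 1 limma fit (limma 3.58.1, R 4.3.3, 2-sided, Benjamini-Hochberg over all 23410, threshold 0.05). The design was also run on simulated data with the same spread on every array. That run cannot show how the fit behaves with the unequal spread of the arrays here. Lists use the brightest single-gene probe set of a gene. Tables came from pandas 2.3.3 with numpy 2.4.6 under Python 3.11.15, and figures from matplotlib 3.10.9. Promoters are RefSeq's for GRCm38.p6, matched by symbol for 9 of 9 members.

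The members and lists were chosen with earlier results of these data known. Named were every member, Rrm2b, Dhodh and Actb, the 4 pathway genes with the smallest p among the lower and the 2 among the higher, and the 3 genes of most similar pattern per member, unnamed gene models left out. Markers named singly were chosen after their values were seen.

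Groups share replicate numbers in the titles. Deviations of same-numbered arrays from their group means correlated at 0.157, 0.15 and 0.279, above the limit of 0.1, so the number was used as a block in an alternative. Old replicate 1 correlated at 0.153 with young replicate 2 too. Other alternatives were scaling, moderation, array weights, a filter on dim probe sets (below 4.32), all probe sets, an adjusted p under 0.1 and leaving out arrays. Those for old replicate 3 alone were added after seeing the data.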

Additional observations from a re-analysis of the deposited data

How the results depend on the processing

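With the replicate number as a block 0 probe sets were called with limma, 10385 having an unadjusted p under 0.05 against 10966 without it, and the pairing changed no call of a member or pathway gene. The count of 0 called probe sets, 0 members and 0 pathway genes held in every setting over all arrays but array weights, with 19998, 7 and 29. Leaving out 1 array gave 0 to 19285 probe sets, 0 to 7 members and 0 to 28 pathway genes, the high end in each case without old replicate 3. With old replicates 1 and 2 left out the counts were 1638, 3 and 5. The median difference of the members, -1.14, moved to -0.60 with quantile normalization and to -0.54 with old replicate 3 alone, and ran from -0.83 to -1.48 on leaving out 1 array. Cad, at 0.11, turned to -0.15 with median centring and -0.46 with old replicate 3 alone, and ran from -0.07 (without old replicate 1) to 0.39 (without old replicate 3) on leaving out 1 array, being 0 to the second decimal without young replicate 2. Tk1 probe set 10582809, at 0.03, turned to -0.22 with median centring, -0.11 with array weights and -0.79 with old replicate 3 alone, and ran from -0.52 (without old replicate 1) to 0.44 (without old replicate 3) on leaving out 1 array, being -0.10 without young replicate 2. Tk1 probe set 10393431, at -0.51, turned to 0.39 with quantile normalization. The other 7 member probe sets kept a negative sign in every setting of the comparison of all arrays and with arrays left out. With old replicate 3 alone, quantile normalization turned Dut from -0.27 to 0.03 and Tk1 probe set 10393431 from -0.05 to 0.26, and the latter was at 0.05 without young replicate 1. For old replicate 3 alone, 955 probe sets and 0 members were called with quantile normalization and 1 member without dim probe sets, and leaving out 1 young array gave 189 to 3920 probe sets and 0 to 4 members. The causes were not tested. Signal over background limits every value of old replicates 1 and 2, where 9 and 5 of the 10 members were within background.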
